A study of Mus musculus with 8 samples.

Results

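The comparison covered the first day of OL differentiation in mouse primary OPCs, with 2 libraries of cells in growth medium (Day 0) set against 2 libraries of cells 1 day after the change to differentiation medium (Day 1). These 4 libraries are part of a time course of 8 that runs to Day 3. Of the 23427 genes listed, 12208 had at least 1 FPKM, that is, fragments mapped to a gene scaled to its transcript length and to the depth of the library, in at least 2 of the 8 libraries, and these were tested. All cells were wild type, from C57BL/6J pups at postnatal day 7. Cortices of 3 pups were combined in an isolation, and the cells were selected by immunopanning on an antibody against PDGFRα, after plates coated with the lectin BSL I had taken up other cells. The Day 0 medium held PDGF-AA and CNTF at 10 ng/mL each. The Day 1 medium lacked PDGF-AA and held triiodothyronine (T3), the active thyroid hormone, at 40 ng/mL. The sources used here do not say plainly whether CNTF was also withdrawn, and the labels describe a medium with serum that the methods do not mention. The libraries of one day differ from those of the other in mitogen, T3 and time in culture together, so that the parts of these cannot be told apart.

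OPCs divide under PDGF, whose receptor PDGFRα acts through the RAS and MAP kinase cascade and through PI3 kinase. When the mitogen is taken away and thyroid hormone is given, they leave the cell cycle and pass through a committed, premyelinating stage before they make myelin, a membrane rich in cholesterol and galactolipids. Thyroid hormone acts through nuclear receptors that repress their target genes without ligand and activate them with it.

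The 4 libraries were shallow, at an estimated 1230000 to 1530000 fragments, where 1 FPKM in a transcript of 2000 bases stands for 2.46 to 3.06 fragments. The 2 libraries of Day 0 correlated at r = 0.964 and those of Day 1 at r = 0.953 over genes on the log2 scale. The OL lineage was present throughout, with *Sox10* at 379.6 and 375 FPKM on Day 0 and 579 and 563 FPKM on Day 1. Of 13 microglial markers 2 were tested, of 10 endothelial markers 1 and of 12 mural and fibroblast markers 2, and each of these lists summed to at most 13.3 FPKM in any of the 4 libraries. *Ptprc*, *Pecam1* and *Col3a1* were among the markers that did not pass. Summed over the list, astrocyte markers separated the replicates rather than the days, though not every marker followed the sum. The 12 markers summed to 159 FPKM in Day 0 replicate 1 and 133 FPKM in Day 1 replicate 1, against 393 FPKM and 433 FPKM in the replicate 2 libraries of the same days. *Gfap*, the astrocyte intermediate filament, stood at 14.7 and 154 FPKM on Day 0 and 30.4 and 317 FPKM on Day 1, and *Aqp4*, the astrocyte water channel, at 0.898 and 22.9 FPKM on Day 0 and 0.802 and 28.8 FPKM on Day 1. Of 11 astrocyte markers tested, 7 had a negative log2 fold change and 4 a positive one, and 1 was called, *Sox9*. It stood at 27.5 and 69 FPKM on Day 0 and 1.77 and 5.09 FPKM on Day 1, lower in both Day 1 libraries. In the fit with a replicate block, 1 marker was higher and 2 were lower. The part of astrocytes in the results below was not tested. Leaving out 1 library does not remove the difference between replicates. The median log2 fold change of the astrocyte list was 0.77 without Day 1 replicate 1 and -1.1 without Day 1 replicate 2.

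In limma on log2(FPKM + 1), 615 genes were higher on Day 1 than on Day 0 (5.04% of those tested) and 923 were lower (7.56%) at an adjusted p under 0.05. These shares are the background for every count of list members below. The median log2 fold change over all genes was -0.07. Quantile normalization moved it to 0.05 and gave 843 genes higher and 833 lower, so that 50.3% of calls were higher, against 40% without it. An exact permutation test of 2 against 2 libraries cannot go below p = 0.333, so that the adjusted p-values rest on the spread that limma shares across genes and days. Many calls needed all 4 libraries. The higher and lower counts were 248 and 359 without Day 0 replicate 1, 216 and 367 without Day 0 replicate 2, 434 and 724 without Day 1 replicate 1, and 270 and 438 without Day 1 replicate 2. A call that passed in each of these 4 fits is said below to hold; 174 of the genes that were higher and 301 of those that were lower did. These fits, like that of all libraries, had no replicate block. A gene that passed the filter on low values only through the libraries of one day had to differ, so that the counts below describe the lists and do not test them.

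**Figure D1:**
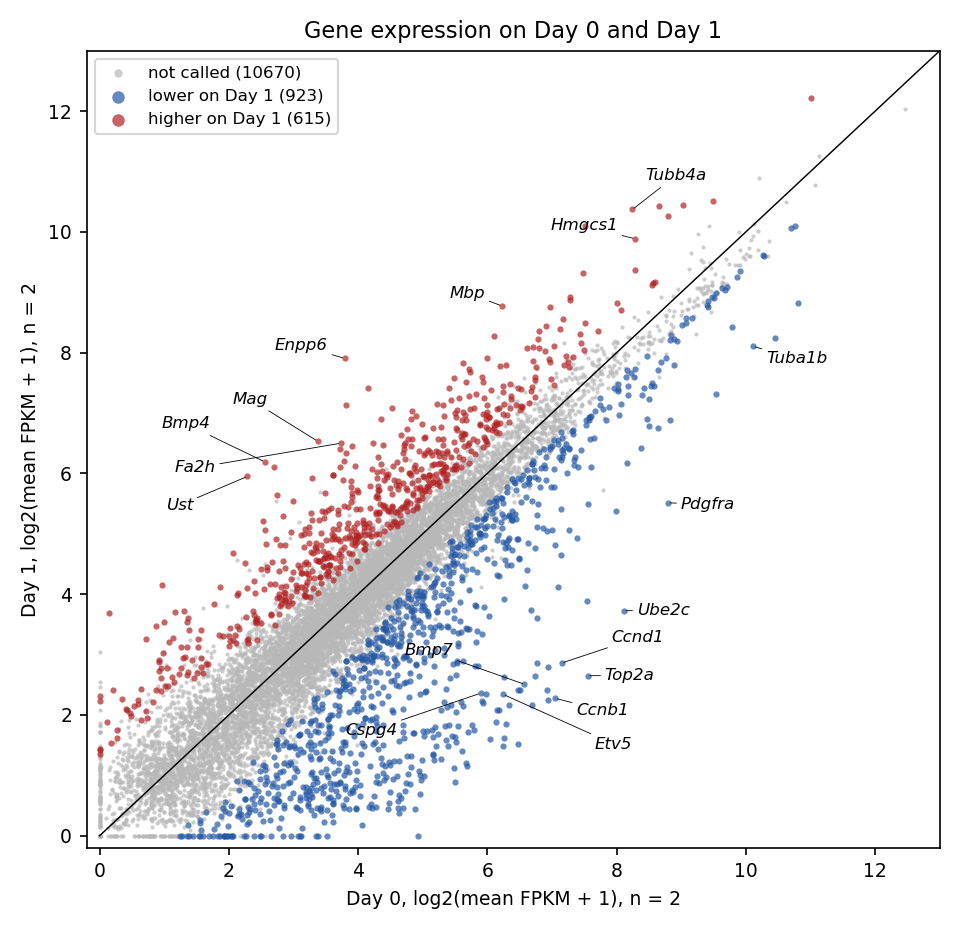
Each point is 1 of the 12208 genes tested, with its mean FPKM (n = 2 libraries, log2 after adding 1) on Day 0 on the x axis and on Day 1 on the y axis; the line marks equal levels. The 615 genes called higher lie above the line and the 923 called lower below it, with *Enpp6* and *Bmp4* far above and *Top2a*, *Ube2c* and *Ccnb1* far below.

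The 15 largest rises among called genes with at least 10 FPKM on Day 1 were led by *Enpp6*, a choline phosphodiesterase that marks newly forming OLs (GRCm38, chr8:46986887-47096762). *Enpp6* stood at 11.1 and 14.6 FPKM on Day 0 and 158 and 319.7 FPKM on Day 1 (log2 fold change 4.04 ± 0.35 SE, adjusted p = 0.000752, limma). *Bmp4*, a ligand of the BMP family (chr14:46383520-46390669), followed with 5.23 and 4.5 FPKM on Day 0 and 61.3 and 83.1 FPKM on Day 1 (log2 fold change 3.63 ± 0.58 SE, adjusted p = 0.00507). In both genes the lowest Day 1 library lay at more than 10 times the highest Day 0 library. The others were *Ust*, which encodes a sulfotransferase of chondroitin and dermatan sulfate, *Tmem163*, *Gng4*, a G protein gamma subunit, *Mtap1b*, *Parvb*, an integrin-linked kinase partner, *Mag*, *Cbln2*, *Nkx6-2*, *Fa2h*, *Cdk18*, *Kif19a*, *Capn5* and *LOC100504703*, with log2 fold changes from 2.71 to 3.62. Of these 15, *Bmp4* and *Cbln2* lost the call without Day 0 replicate 2 (adjusted p = 0.056 and 0.069), and *Nkx6-2*, *Capn5* and *LOC100504703* lost it in 2 or 3 of the 4 fits (adjusted p up to 0.067, 0.24 and 0.15). Of the 15 largest falls, 13 were members of the lists of mitosis and DNA replication described next, and *Pbk* is another mitotic kinase. The exception, *Akr1b3*, an aldose reductase, stood at 26.1 and 32.6 FPKM on Day 0, was listed at practically 0 in both Day 1 libraries and was at 16.4 and 15 FPKM on Day 2. It lost the call in all 4 fits without 1 library (adjusted p up to 0.21). A listed value of this kind may be a failed estimate, and no fold is given for it.

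**Figure D2:**
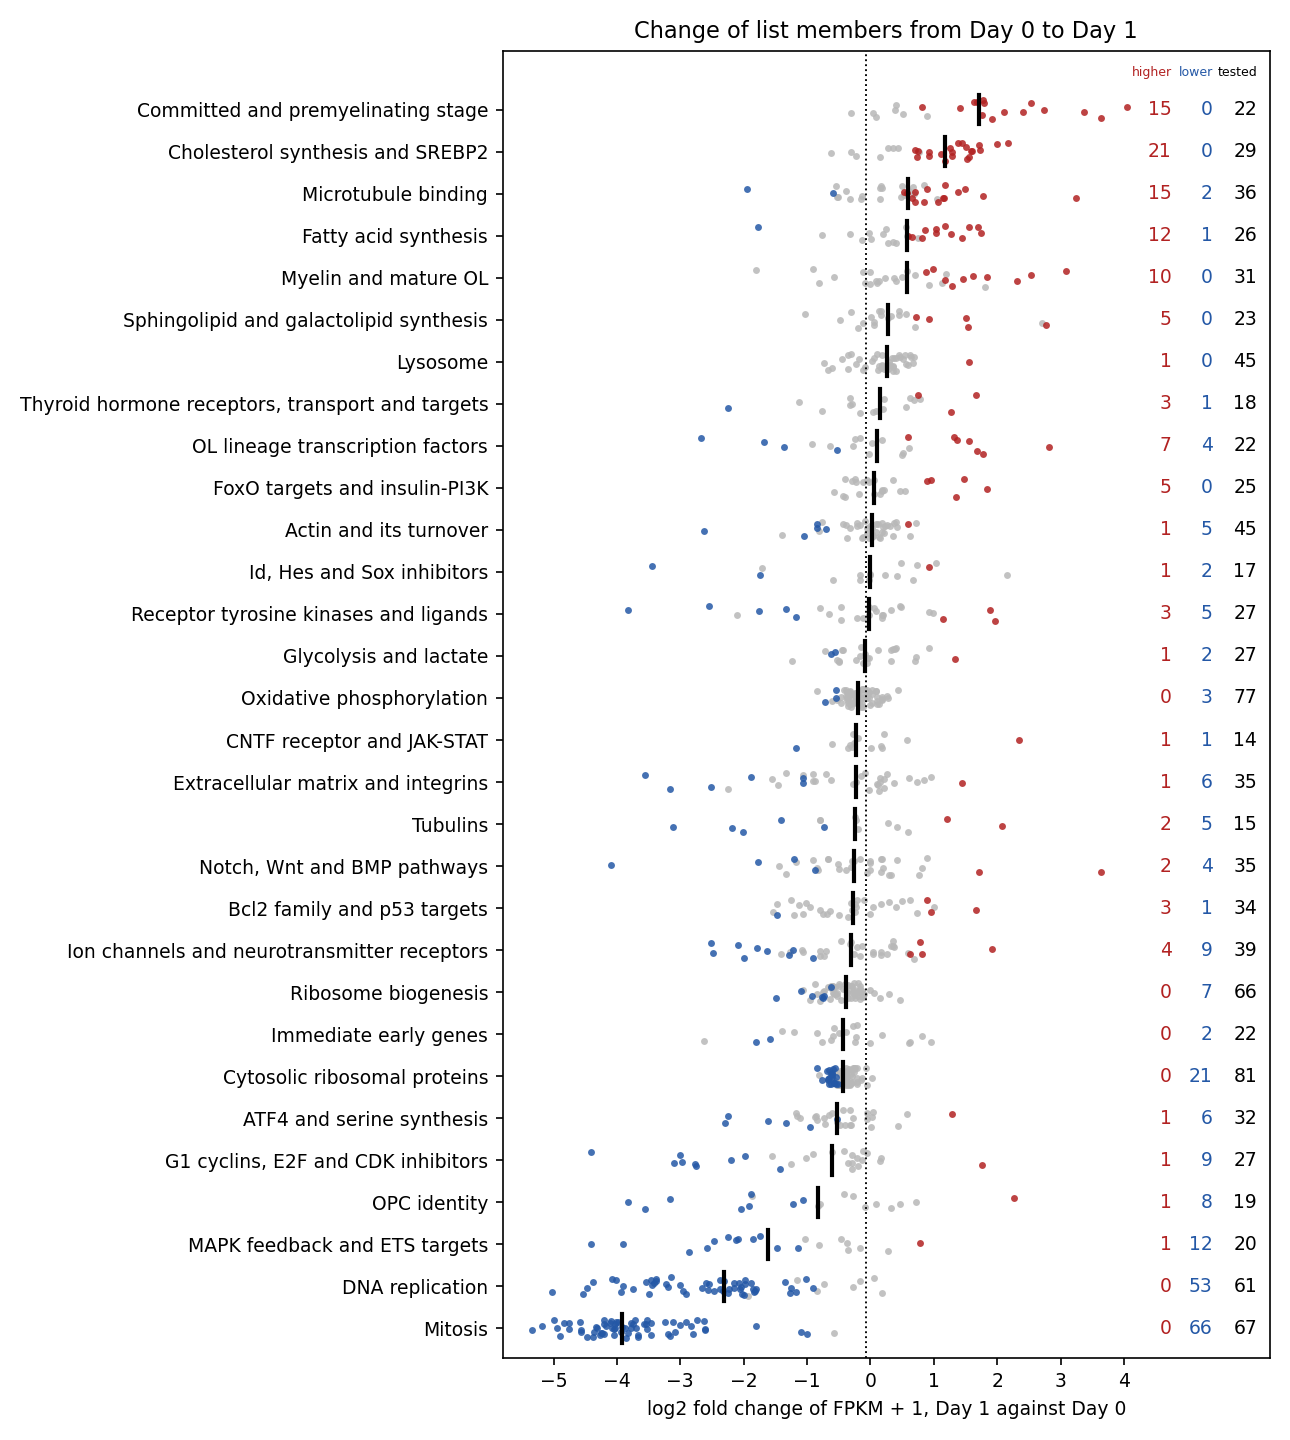
Each point is the log2 fold change of 1 tested list member from Day 0 to Day 1 (x axis), red where called higher, blue where called lower and grey where not called; the black bar is the list's median and the dotted line the median of all genes, -0.07. The lists run from committed and premyelinating stage at the top (median 1.72, 15 of 22 higher) to mitosis at the bottom (median -3.92, 66 of 67 lower).

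Genes of cell division fell more than any other group described here. Of the 67 genes of the mitosis list, which holds cyclins, kinases, kinesins and kinetochore and cytokinesis proteins, 66 fell and none rose, and their median log2 fold change was -3.92. *Top2a*, the topoisomerase that untangles chromosomes, stood at 217 and 157 FPKM on Day 0 and 8.91 and 1.65 FPKM on Day 1 (log2 fold change -5.18 ± 0.57 SE, adjusted p = 0.00129). *Ccnb1*, the cyclin of mitotic entry, went from 143 and 120.3 to 6.34 and 1.35 FPKM (log2 fold change -4.99 ± 0.48 SE, adjusted p = 0.000933). *Ube2c*, which charges the anaphase-promoting complex with ubiquitin, had the largest change of all, 321 and 231 FPKM on Day 0 and 23.6 and 0.84 FPKM on Day 1 (log2 fold change -5.34 ± 0.96 SE, adjusted p = 0.00854). The Day 1 libraries of these genes were unequal. Replicate 1 kept 23.6 FPKM of *Ube2c* where replicate 2 had 0.84 FPKM, and over the whole list the sum was 4559 and 3601 FPKM on Day 0, 496 FPKM in Day 1 replicate 1 and 333 FPKM in Day 1 replicate 2. Both Day 1 sums nonetheless lay far below both Day 0 sums. The proliferation marker *Mki67* was at 133 and 107 FPKM on Day 0 and 7.61 and 1.09 FPKM on Day 1 (log2 fold change -4.83), *Ccna2* at 139.5 and 105 FPKM on Day 0 and 6.4 and 1.14 FPKM on Day 1, and *Plk1*, a kinase of spindle and cytokinesis, at 80.2 and 49.9 FPKM on Day 0 and 3.33 and 0.71 FPKM on Day 1. The smallest falls called were those of the checkpoint gene *Bub3* (-1.09) and of *Ube2s* (-1.0), which kept 38.9 and 36.5 FPKM and 159 and 179.7 FPKM on Day 1. *Pttg1*, securin, was the one member not called, at 6.17 and 7.83 FPKM and 4.41 and 4.23 FPKM. With 1 library left out, 60 to 65 of the 67 were still called. *Ube2c* lost the call without Day 0 replicate 1 or replicate 2 (adjusted p up to 0.084), and *Cdc20* and *Ube2s* lost it without Day 0 replicate 1 (0.058 and 0.085).

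Genes of mitosis share short elements in their promoters, the CHR (cell cycle genes homology region) and the CCAAT box, which are known as sites of the DREAM complex and of NF-Y. Promoters from 250 bases before to 50 after the transcription start were taken from RefSeq (GRCm38.p6), and 55 of the 67 mitosis genes were matched. TTTGAA, the CHR letters, stood on either strand in 38 of the 55 (69.1%), against 18.1% of all 27025 promoters, and CCAAT on either strand in 39 (70.9%), against 37.9%. Both were held by 32 of the 55 (58.2%), against 7.12% of all. The promoters of the 3 genes with the largest falls that held both are printed with the matches in capitals, TTTGAA or its complement TTCAAA and CCAAT or its complement ATTGG, so that their number and spacing can be seen. *Ube2c* lies at chr2:164769679-164769978 on the plus strand, *Top2a* at chr11:99024140-99024439 on the minus strand and *Cenpa*, the centromeric histone, at chr5:30666636-30666935 on the plus strand, each printed 5′ to 3′ along its gene.
Ube2c: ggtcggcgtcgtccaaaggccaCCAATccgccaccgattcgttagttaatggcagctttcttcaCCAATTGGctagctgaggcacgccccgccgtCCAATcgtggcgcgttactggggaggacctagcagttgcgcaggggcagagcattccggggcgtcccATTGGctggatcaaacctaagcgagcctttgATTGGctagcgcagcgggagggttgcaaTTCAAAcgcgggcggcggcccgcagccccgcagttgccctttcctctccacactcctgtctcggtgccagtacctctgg
Top2a: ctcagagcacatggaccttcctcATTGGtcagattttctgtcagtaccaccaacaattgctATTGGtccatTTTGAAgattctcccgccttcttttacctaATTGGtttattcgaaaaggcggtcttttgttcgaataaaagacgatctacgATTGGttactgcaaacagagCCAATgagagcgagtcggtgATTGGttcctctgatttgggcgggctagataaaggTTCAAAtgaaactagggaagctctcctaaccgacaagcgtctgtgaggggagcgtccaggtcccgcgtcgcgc
Cenpa: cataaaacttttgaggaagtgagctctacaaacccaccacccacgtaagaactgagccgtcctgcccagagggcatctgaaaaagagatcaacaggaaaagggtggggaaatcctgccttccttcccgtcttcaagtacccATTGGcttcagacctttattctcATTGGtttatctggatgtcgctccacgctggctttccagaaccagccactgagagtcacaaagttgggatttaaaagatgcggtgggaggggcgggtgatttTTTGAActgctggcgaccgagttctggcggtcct
*Ube2c* held the CHR letters at -29 and CCAAT boxes at -57, -88, -155, -183, -186 and -228 from the start, the boxes at -183 and -186 overlapping. *Top2a* held CHR letters at -23 and -179 with 6 CCAAT boxes between -58 and -227. In *Cenpa* the CHR letters lay after the start, at 17, and CCAAT boxes at -86 and -109. A match is a run of letters and not a measured site.

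DNA synthesis fell with mitosis. Of 61 genes of origin licensing, helicase, polymerases, clamp and nucleotide synthesis, 53 fell and none rose, with a median log2 fold change of -2.31. *Rrm2*, the ribonucleotide reductase subunit that limits deoxynucleotide supply, stood at 109 and 96.1 FPKM on Day 0 and 3.37 and 3.59 FPKM on Day 1 (log2 fold change -4.53 ± 0.25 SE, adjusted p = 0.000509). *2810417H13Rik* (*Pclaf*), a partner of the sliding clamp, went from 93.1 and 83.3 to 2.73 and 0.983 FPKM (-5.03), and *Mcm5*, a helicase subunit, from 56 and 52.4 to 3.1 and 1.6 FPKM (-4.08). *Pcna*, the clamp, which also serves DNA repair, fell less and kept 48.5 and 39.7 FPKM of its 182 and 192 FPKM (-2.07). The 8 members not called were *Rfc3*, *Pold3*, *Rpa3* and the 5 origin recognition genes *Orc1* to *Orc5*, and of these *Orc2*, *Orc3*, *Orc4* and *Orc5* had log2 fold changes of -0.17, 0.06, 0.18 and -0.28, each with an SE of 0.21 or 0.22. All of the called genes named here held, and the count was 38 to 50 with 1 library left out. An E2F site, TTTGGCGC, TTTCCCGC or TTTCGCGC on either strand, stood in the promoters of 16 of 50 matched genes (32%), against 1.91% of all promoters. Of the 42 matched genes that were called, 12 held a site, so that the share was not higher among the genes that fell. The E2F letters are in capitals in the promoters of the 3 genes with the largest falls that held one, *Pclaf* (chr9:65890073-65890372, plus strand), *Mcm5* (chr8:75109259-75109558, plus strand) and *Clspn*, claspin of the replication checkpoint (chr4:126556730-126557029, plus strand), printed to show how close to the start they lie.
Pclaf: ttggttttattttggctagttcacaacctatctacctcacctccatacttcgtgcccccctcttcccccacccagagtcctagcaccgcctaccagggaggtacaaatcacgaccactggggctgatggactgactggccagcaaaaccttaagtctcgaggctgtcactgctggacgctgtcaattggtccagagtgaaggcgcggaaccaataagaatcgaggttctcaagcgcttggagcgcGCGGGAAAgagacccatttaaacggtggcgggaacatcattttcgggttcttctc
Mcm5: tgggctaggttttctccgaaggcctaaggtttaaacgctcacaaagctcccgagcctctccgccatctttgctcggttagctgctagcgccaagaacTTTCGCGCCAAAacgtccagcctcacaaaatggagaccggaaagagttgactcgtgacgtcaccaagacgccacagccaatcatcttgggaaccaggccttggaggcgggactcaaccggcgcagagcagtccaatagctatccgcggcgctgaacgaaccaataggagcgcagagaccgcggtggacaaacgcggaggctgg
Clspn: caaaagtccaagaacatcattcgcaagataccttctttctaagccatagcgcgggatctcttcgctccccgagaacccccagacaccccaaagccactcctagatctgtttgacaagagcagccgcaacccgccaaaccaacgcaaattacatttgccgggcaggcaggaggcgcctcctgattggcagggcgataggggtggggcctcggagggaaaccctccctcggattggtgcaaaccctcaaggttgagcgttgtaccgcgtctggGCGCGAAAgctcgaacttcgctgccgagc
The letters began at -5 in *Pclaf* and at 22 in *Clspn*, and in *Mcm5* matches on both strands overlapped at -153 and -149.

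The control of G1 was mixed. Of 27 genes tested, 9 fell and 1 rose, with a median of -0.60. *Ccnd1*, cyclin D1, the D cyclin that mitogens induce (chr7:144929931-144939925), stood at 124 and 158 FPKM on Day 0 and 9.24 and 3.3 FPKM on Day 1 (log2 fold change -4.41 ± 0.38 SE, adjusted p = 0.000761). *Ccne2*, cyclin E2, went from 10.9 and 11.5 to 1.03 and 0 FPKM, and *E2f1* from 6.36 and 7.29 FPKM to 0 in both Day 1 libraries. *Cdk4*, the kinase partner of cyclin D1, was at 382 and 425 FPKM on Day 0 and 339.8 and 319 FPKM on Day 1 and was not called. Among the inhibitors of CDKs the members went different ways. *Cdkn1c*, p57, rose from 5.82 and 4.28 to 14.3 and 26.1 FPKM (log2 fold change 1.76 ± 0.36 SE, adjusted p = 0.0163) and was back at 2.86 and 3.84 FPKM on Day 3, whereas *Cdkn2c*, p18, fell from 44.8 and 39.1 to 8.11 and 2.12 FPKM. *Cdkn1b*, p27, was at 44.2 and 49.8 FPKM on Day 0 and 50.2 and 37.1 FPKM on Day 1. *Cdkn1a*, p21, differed more between replicates than between days, at 2.05 and 51.6 FPKM and 1.71 and 9.42 FPKM. The rise of *Cdkn1c* was lost in 3 of the 4 fits without 1 library (adjusted p up to 0.13) and the fall of *Cdkn2c* without Day 0 replicate 1 (0.051).

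Most genes of the list of MAP kinase targets fell, and most immediate early genes were not called. Of 20 feedback inhibitors, ETS factors and other targets, 12 fell and 1 rose, with a median of -1.61. *Ccnd1*, described above, is one of the 12. *Etv5*, an ETS factor induced by growth factors, stood at 74 and 75.9 FPKM on Day 0 and 3.63 and 4.5 FPKM on Day 1 (log2 fold change -3.91 ± 0.26 SE, adjusted p = 0.000748), with both Day 1 libraries far below both Day 0 libraries. *Spry4*, a Sprouty inhibitor of the cascade, went from 9.09 and 8.17 to 0.533 and 0.681 FPKM (log2 fold change -2.58 ± 0.40 SE, adjusted p = 0.00443). *Phlda1* went from 46.7 and 43 to 6.26 and 4.4 FPKM and *Dusp6*, the phosphatase of ERK, from 11.4 and 7.87 to 1.75 and 1.12 FPKM. *Phlda1* was back at 66.2 and 110.1 FPKM on Day 3, while *Etv5* was at 7.2 and 8.47 FPKM. *Dusp7* was the member that rose, from 11.2 and 9.9 to 19.5 and 18 FPKM, and lost the call in all 4 fits without 1 library (adjusted p up to 0.11). *Myc* was at 59.8 and 84.6 FPKM and 61.9 and 42.4 FPKM and was not called. The fall of *Dusp6* was lost in 3 of the 4 fits (up to 0.099), and the number of members that fell was 5 without either Day 0 library, 9 without Day 1 replicate 1 and 4 without Day 1 replicate 2. Of 22 immediate early genes 2 fell, *Jun* from 33.1 and 36.1 to 11.5 and 7.36 FPKM (log2 fold change -1.80 ± 0.22 SE, adjusted p = 0.00159) and *Egr2* from 2.42 and 1.65 FPKM to 0, which lost the call in all 4 fits (up to 0.13). *Fos* was at 28.3 and 26.5 FPKM on Day 0 and 41.3 and 23.5 FPKM on Day 1. The serum response motif known as the CArG box was held by 2 of 31 matched promoters of the 2 lists together, neither of a called gene, and the ETS site CCGGAAGT by 0, against 1.57% and 4% of all promoters. The absence of these letters says nothing of the factors that bind them.

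**Figure D3:**
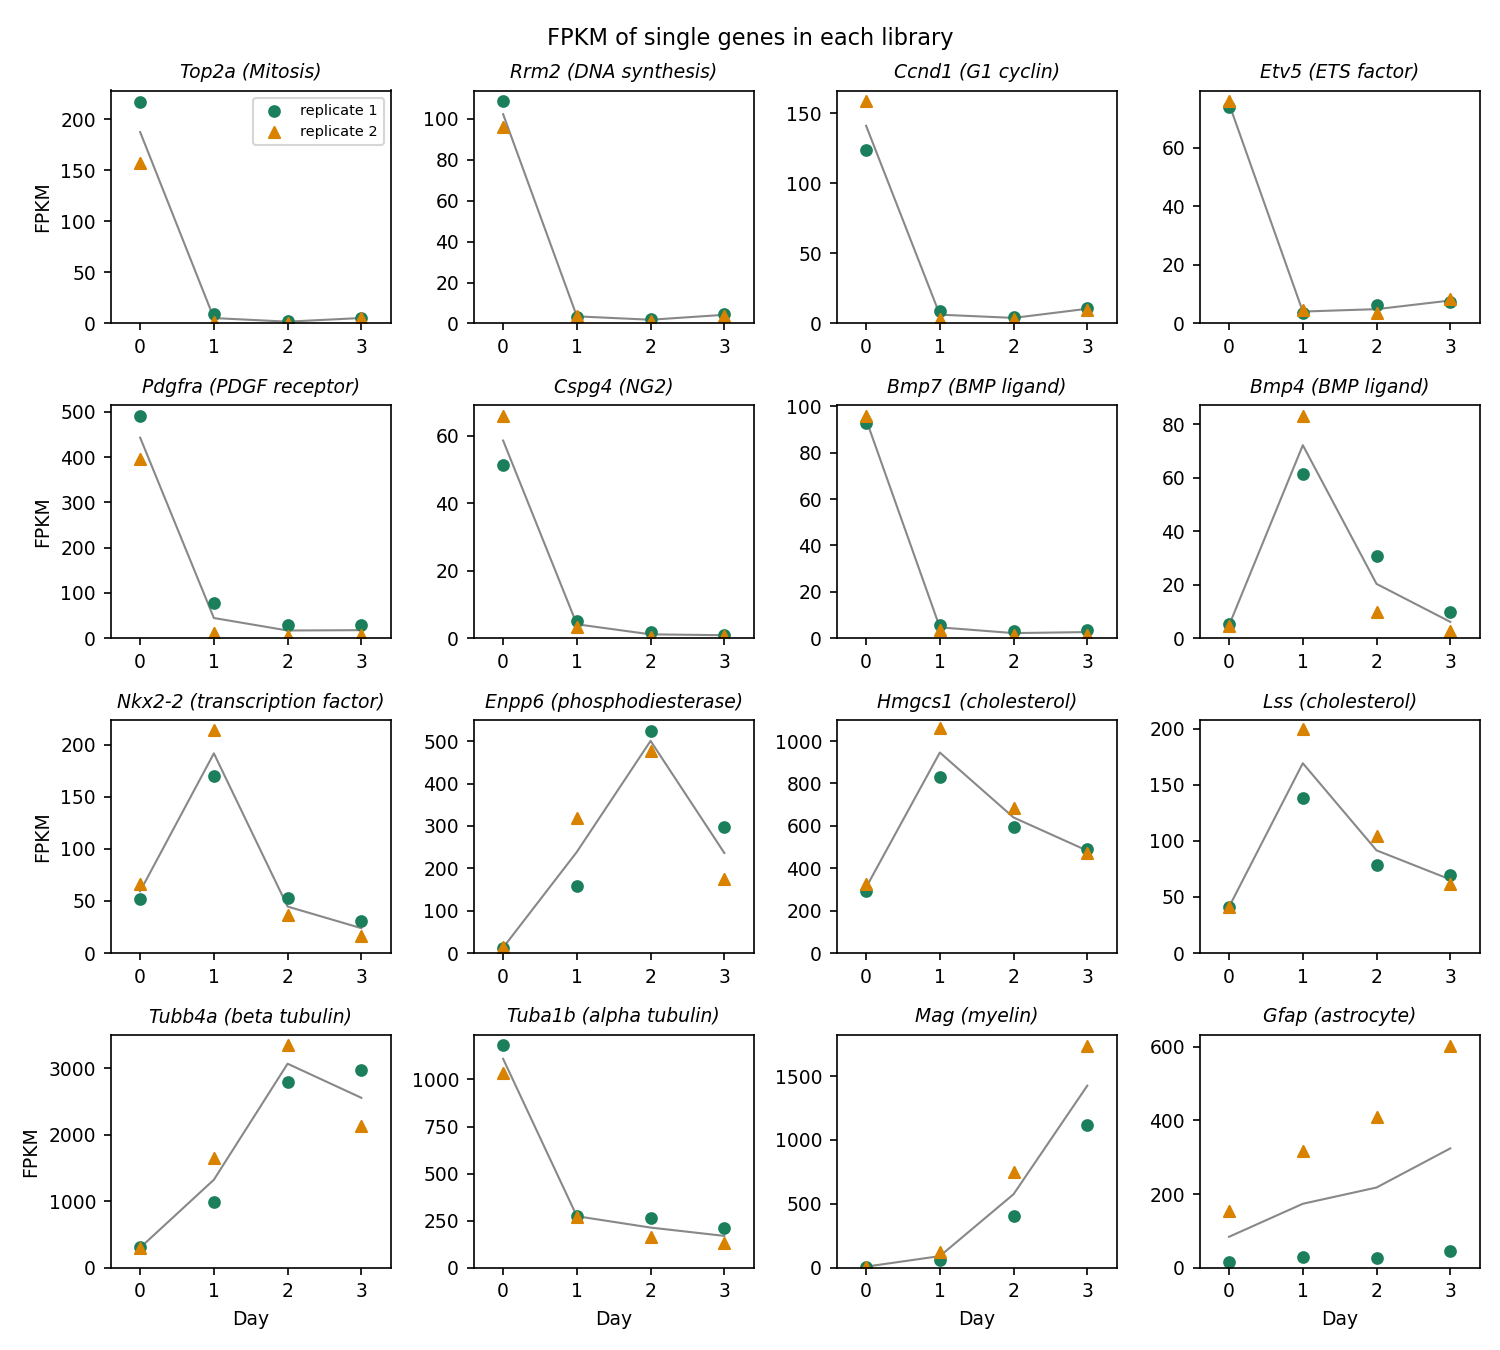
FPKM of 16 genes (y axis, starting at 0) by day of differentiation (x axis), with a circle for replicate 1, a triangle for replicate 2 and a line through the means of the 2. *Top2a*, *Rrm2*, *Ccnd1*, *Etv5* and *Bmp7* were low from Day 1 on, *Bmp4*, *Nkx2-2*, *Hmgcs1* and *Lss* were highest on Day 1, and *Gfap* was higher in replicate 2 on each day.

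Receptor tyrosine kinases and their ligands went both ways. *Pdgfra*, the PDGF receptor (chr5:75152292-75198215) and the antigen of the immunopanning, stood at 490.3 and 396 FPKM on Day 0 and 78.2 and 11.2 FPKM on Day 1 (log2 fold change -3.83 ± 1.00 SE, adjusted p = 0.0419). Replicate 2 was the lower on each day, and with a replicate block *Pdgfra* had an SE of 0.46 (adjusted p = 0.00115, limma). Its Day 1 libraries lay far apart, and the call was lost without Day 0 replicate 1, Day 0 replicate 2 or Day 1 replicate 2 (adjusted p up to 0.22). *Pdgfa*, which encodes its ligand PDGF-A, rose from 10.2 and 7.2 to 36 and 36.9 FPKM (log2 fold change 1.96 ± 0.28 SE, adjusted p = 0.00295) and held. Of 27 receptor tyrosine kinases and ligands, 5 fell and 3 rose, with a median of -0.03, whose sign depended on scaling, being 0.05 under median ratios and 0.15 under quantile normalization. *Kit* fell from 8.05 and 12.9 to 1.58 and 0.454 FPKM, *Ntrk3* from 23.5 and 27.8 to 7.26 and 6.47 FPKM and *Fgfr1* from 22.9 and 25.1 to 9.44 and 10.6 FPKM. Each of these lost the call in 1 or 2 of the 4 fits without 1 library (adjusted p up to 0.094, 0.064 and 0.087). *Ephb1*, a receptor of ephrins, rose from 4.61 and 7.18 to 14.3 and 40 FPKM (log2 fold change 1.89 ± 0.45 SE, adjusted p = 0.0288), a call lost in 3 of the 4 fits (up to 0.19). *Erbb3*, the neuregulin receptor, was at 32.9 and 12 FPKM and 11.2 and 0.973 FPKM, not called in the fit of all libraries but called as lower with a replicate block or without Day 1 replicate 1. In the pathway of CNTF, 1 of 14 genes rose and 1 fell (7.14% each), near the 5.04% higher and 7.56% lower of all genes. CNTF acts through JAK and STAT3. *Socs3*, its feedback inhibitor, fell from 33.7 and 37.4 to 13.8 and 16.9 FPKM (log2 fold change -1.17 ± 0.19 SE, adjusted p = 0.00619), a call lost without Day 0 replicate 2 (0.069), and *Pim3* rose from 8.89 and 13.5 to 47.9 and 75.3 FPKM (log2 fold change 2.35 ± 0.31 SE, adjusted p = 0.00217). The receptor genes *Cntfr*, *Lifr* and *Il6st* were not called. Of 25 genes of insulin signalling and of FoxO factors, which PI3 kinase holds out of the nucleus, 5 rose and none fell, among them the adaptor *Irs1* from 10.2 and 8.72 to 35.1 and 37.9 FPKM (log2 fold change 1.84 ± 0.16 SE, adjusted p = 0.000752), with a median of 0.06 that was -0.10 without Day 1 replicate 1. With 1 library left out, the receptor and ligand list had 0 to 6 falls and 1 to 3 rises, with 0 falls without Day 0 replicate 2, and the insulin list had 2 or 3 rises, while *Irs1* and *Pim3* held.

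BMP ligands exchanged places. *Bmp7* fell from 92.8 and 95.7 to 5.8 and 3.58 FPKM (log2 fold change -4.09 ± 0.37 SE, adjusted p = 0.000804) while *Bmp4* rose, and in neither did the days overlap. *Bmp4* was at 30.9 and 9.79 FPKM on Day 2 and 9.65 and 2.62 FPKM on Day 3. *Nog*, the secreted antagonist noggin, rose from 1.02 and 0 to 4.67 and 2.85 FPKM (log2 fold change 1.72 ± 0.46 SE, adjusted p = 0.0448), a low level at this depth, and lost the call in all 4 fits without 1 library (adjusted p up to 0.25). Of the 35 genes of the Notch, Wnt and BMP pathways that were tested, 4 fell and 2 rose, with a median of -0.26. The Notch ligands *Dll1* and *Dner* fell from 34 and 36.6 to 12.6 and 7.3 FPKM and from 29.8 and 40.2 to 12.6 and 16.4 FPKM, and *Ctnnb1*, beta-catenin, from 292 and 287 to 154 and 161 FPKM (log2 fold change -0.88 ± 0.13 SE, adjusted p = 0.00351). *Ctnnb1* and *Bmp7* held, *Dner* lost the call without Day 0 replicate 2 (0.079) and *Dll1* in 3 of the 4 fits (up to 0.14).

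Progenitor genes fell unevenly. Of 19 genes of OPC identity tested, 8 fell and 1 rose, with a median of -0.82. *Cspg4*, the NG2 proteoglycan, stood at 51.3 and 65.7 FPKM on Day 0 and 5.06 and 3.21 FPKM on Day 1 (log2 fold change -3.55 ± 0.40 SE, adjusted p = 0.00131). *Cspg5*, neuroglycan C, went from 106 and 109 to 11.6 and 10.6 FPKM (-3.16), *Xylt1*, which starts glycosaminoglycan chains, from 46.7 and 47 to 12.7 and 8.91 FPKM (-2.04) and *Ptprz1*, a receptor phosphatase, from 227 and 294 to 138 and 111 FPKM (-1.06). *Lhfpl3*, a marker of the same cells, was at 165 and 198 FPKM on Day 0 and 231 and 275 FPKM on Day 1 and was not called. *Neu4*, a sialidase, was the member that rose, from 2.46 and 5.06 to 16.1 and 27.6 FPKM (log2 fold change 2.27 ± 0.53 SE, adjusted p = 0.0274). In a bulk culture, fewer cells of a kind and less RNA per cell cannot be told apart. *Cspg4*, *Cspg5* and *Xylt1* held, whereas *Ptprz1* lost the call in 3 of the 4 fits without 1 library and *Neu4* in all (adjusted p up to 0.15 and 0.18), and the number that fell was 3 without Day 0 replicate 1, Day 0 replicate 2 or Day 1 replicate 2.

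Transcription factors of the lineage divided. Of 22 tested, 7 rose and 4 fell, with a median of 0.10. With 1 library left out, 3 to 5 rose and 1 to 3 fell, and the median was -0.04 without Day 0 replicate 2. *Nkx2-2*, a repressor that drives OPCs toward differentiation, rose from 52.1 and 66.7 to 169.7 and 214 FPKM (log2 fold change 1.68 ± 0.30 SE, adjusted p = 0.00873) and was at 53.2 and 36.1 FPKM on Day 2, no higher than the Day 0 library with more. *Tcf7l2*, a Wnt effector of premyelinating cells, rose from 22.8 and 27.3 to 84.2 and 92 FPKM (1.78), *Zeb2* from 52.8 and 46.1 to 121 and 129 FPKM (1.32) and *Gm98* (*Myrf*), the factor that switches on myelin genes, from 56.1 and 63.9 to 149 and 212 FPKM (log2 fold change 1.56 ± 0.19 SE, adjusted p = 0.00172). *Sox10* rose by 0.60 on the log2 scale. *Olig1* fell from 831 and 936 to 387 and 299.7 FPKM (log2 fold change -1.37 ± 0.16 SE, adjusted p = 0.0014) and *Olig2* from 254 and 263 to 190.4 and 167 FPKM (log2 fold change -0.53 ± 0.15 SE, adjusted p = 0.0482). The changes of *Olig2* and *Sox10* were small, and both lost the call in all 4 fits without 1 library (adjusted p up to 0.23 for each). *Olig2* also lost it with each of the 3 scalings. *Nkx2-2* lost it without Day 0 replicate 1 or Day 1 replicate 2 (up to 0.089), while *Tcf7l2*, *Zeb2*, *Gm98* and *Olig1* held. Of 17 genes of the list named Id, Hes and Sox inhibitors, 2 fell and 1 rose, and with a replicate block 3 fell and 5 rose. The list also holds Hey factors, *Klf4*, *Tcf4*, *Notch1* and *Jag1*, and its name does not make each member an inhibitor of differentiation. The member that rose was *Tcf4*, from 89.5 and 86.7 to 182 and 156 FPKM (log2 fold change 0.93 ± 0.18 SE, adjusted p = 0.0118), a call lost in 3 of the 4 fits without 1 library (up to 0.093). *Sox9* fell from 27.5 and 69 to 1.77 and 5.09 FPKM (log2 fold change -3.44 ± 0.61 SE, adjusted p = 0.00828) and *Sox11* from 49.9 and 38 to 12.4 and 12.2 FPKM (log2 fold change -1.74 ± 0.26 SE, adjusted p = 0.00376). *Sox9* lost the call without Day 0 replicate 2 (0.087) and *Sox11* without Day 0 replicate 1 (0.053). *Hes5* was at 34.8 and 17.9 FPKM on Day 0 and 10.9 and 4.3 FPKM on Day 1, and *Id3* at 118 and 70.1 FPKM on Day 0 and 222 and 159 FPKM on Day 1; with the block *Hes5* was called lower and *Id3* higher, and *Id3* was also called with median ratio scaling.

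Genes of the committed and premyelinating stage rose more than those of myelin. Of the 22 tested, 15 rose and none fell, and the median of 1.72 was the highest of all lists. Besides *Enpp6*, *Bmp4* and *Nkx2-2*, *Sirt2*, a deacetylase of the OL cytoplasm, rose from 173 and 190.02 to 782 and 1416 FPKM (log2 fold change 2.53 ± 0.26 SE, adjusted p = 0.00111), *Itpr2*, a calcium channel of the endoplasmic reticulum, from 11.7 and 13.7 to 55.4 and 90.8 FPKM (2.40) and *Tns3*, tensin 3, from 49 and 39 to 181 and 201 FPKM (2.10). The kinase *Fyn*, which acts downstream of axonal contact, rose from 154 and 155 to 427 and 546 FPKM (1.63). *Bcas1* and *Gpr17*, which were already abundant on Day 0, rose less, *Bcas1* from 499 and 539 to 1213 and 1579 FPKM and *Gpr17* from 232 and 279 to 454 and 449 FPKM (1.41 and 0.82). Both lost the call in all 4 fits without 1 library (adjusted p up to 0.16 and 0.23), whereas *Sirt2*, *Itpr2*, *Tns3* and *Fyn* held and the count stayed at 12 or 13.

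Of 31 myelin and mature OL genes tested, 10 rose and none fell, with a median of 0.57. With a replicate block 13 rose and 1 fell. *Mag*, the adhesion protein of the inner myelin membrane, stood at 8.33 and 10.4 FPKM on Day 0 and 62.5 and 121 FPKM on Day 1 (log2 fold change 3.09 ± 0.38 SE, adjusted p = 0.00162). *Mbp* rose from 65.2 and 82.2 to 344 and 530.1 FPKM (log2 fold change 2.53 ± 0.32 SE, adjusted p = 0.00183) and *Mog* from 0.764 and 2.39 to 11.5 and 11 FPKM (log2 fold change 2.32 ± 0.29 SE, adjusted p = 0.00176). *Cnp*, whose locus overlaps *Dnajc7*, rose from 474 and 411 to 1082 and 1365 FPKM (log2 fold change 1.46 ± 0.18 SE, adjusted p = 0.00165). These levels were early on a longer course, since *Mbp* was at 8753 and 11945 FPKM and *Mag* at 1114 and 1736 FPKM on Day 3. Other myelin genes were near the floor on both days. *Mal* was at 0 and 0.312 FPKM on Day 0 and 0 and 0.30 FPKM on Day 1 and reached 20.1 and 65.4 FPKM on Day 3, and *Ermn* was at 0.37 and 0 FPKM on Day 0, 0.232 and 0 FPKM on Day 1 and 19.3 and 67.6 FPKM on Day 3. *Mobp* was at 0.406 and 2.36 FPKM on Day 0, 7.18 and 2.02 FPKM on Day 1 and 432 and 1227 FPKM on Day 3. Of the 10 rises 4 to 7 were called with 1 library left out, and those of *Mag*, *Mbp*, *Mog* and *Cnp* held.

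**Figure D4:**
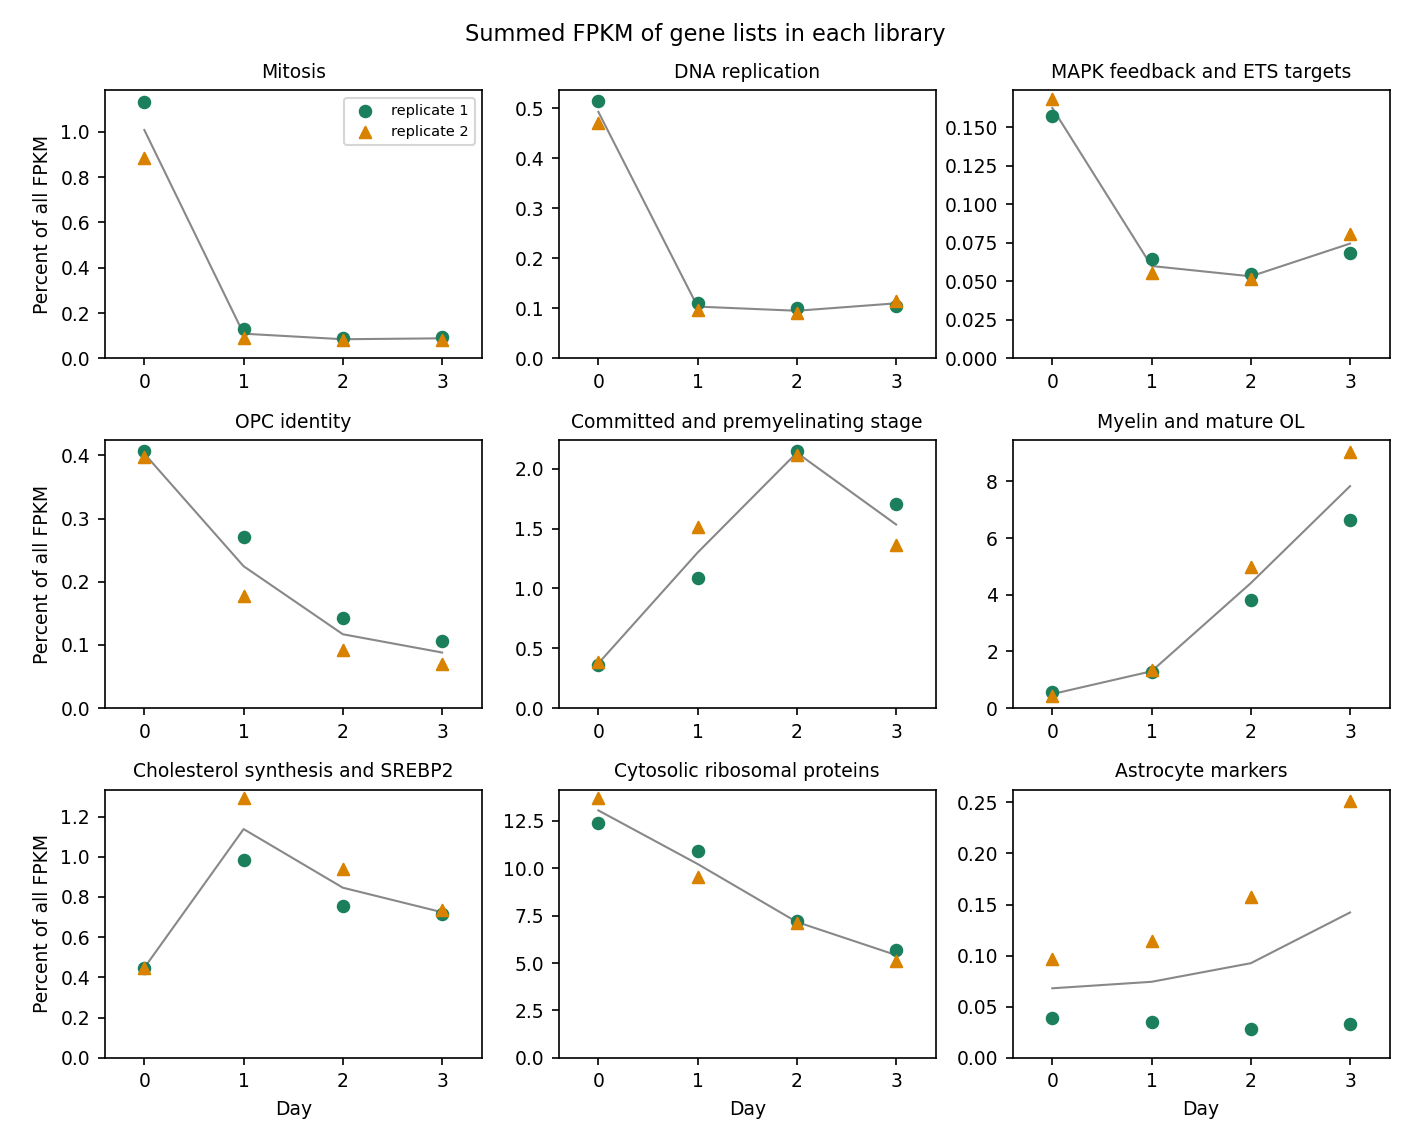
Summed FPKM of 9 gene lists as percent of all FPKM in a library (y axes, starting at 0, scaled to each list) by day of differentiation (x axis), with circles for replicate 1, triangles for replicate 2 and lines through the means. Mitosis went from 1.13% and 0.886% on Day 0 to 0.13% and 0.088% on Day 1, cholesterol synthesis was highest on Day 1, and astrocyte markers differed between replicates on each day.

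Cholesterol synthesis rose as a pathway. Of 29 genes of its enzymes, control and uptake, 21 rose and none fell, with a median of 1.18, and the list's share of all FPKM went from 0.447% and 0.449% to 0.985% and 1.29%. *Hmgcs1*, which makes the precursor HMG-CoA, stood at 294 and 325 FPKM on Day 0 and 831 and 1061 FPKM on Day 1 (log2 fold change 1.60 ± 0.16 SE, adjusted p = 0.00101). *Lss*, which closes the sterol ring, rose from 41.2 and 41.2 to 139 and 199.9 FPKM (1.99) and *Hsd17b7* from 14 and 15 to 61.5 and 76.4 FPKM (2.17). The rises of *Hmgcs1*, *Lss* and *Hsd17b7* held. *Sqle*, squalene epoxidase, rose less, from 105 and 96.7 to 154 and 176 FPKM (0.70), and lost the call in 3 of the 4 fits without 1 library (adjusted p up to 0.11). *Srebf2*, the gene of a factor known to activate this pathway, was at 95.6 and 86.3 FPKM on Day 0 and 113 and 119 FPKM on Day 1. The gene of its escort, *Scap*, was at 33 and 32.2 FPKM on Day 0 and 28.6 and 23.7 FPKM on Day 1, and neither was called. The part of this factor in the rise was not tested. *Abca1*, which exports cholesterol, was at 6.1 and 7.07 FPKM on Day 0 and 9.14 and 5.94 FPKM on Day 1. On Day 3, *Lss* was at 70 and 61.2 FPKM and *Hmgcs1* at 492 and 474 FPKM, below both Day 1 libraries, while *Hsd17b7* was at 183 and 249 FPKM, above them. The number of rises was 12 without Day 0 replicate 1, 11 without Day 0 replicate 2, 18 without Day 1 replicate 1 and 12 without Day 1 replicate 2. A sterol regulatory element with the letters TCACNCCAC was found in 1 of 20 matched promoters, against 1.22% of all. It is that of *Hmgcs1* (chr13:119690101-119690400, plus strand), whose element was among the earliest known, and its promoter is printed with these letters, starting at -137, in capitals.
Hmgcs1: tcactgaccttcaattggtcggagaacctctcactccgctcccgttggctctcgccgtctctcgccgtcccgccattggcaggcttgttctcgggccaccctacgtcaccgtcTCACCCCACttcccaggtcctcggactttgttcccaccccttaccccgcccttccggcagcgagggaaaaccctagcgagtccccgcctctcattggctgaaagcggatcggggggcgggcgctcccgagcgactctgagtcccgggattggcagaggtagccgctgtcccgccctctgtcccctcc

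Fatty acid and galactolipid synthesis followed in part. Of 26 genes of fatty acid synthesis, elongation and desaturation, 12 rose and 1 fell, with a median of 0.58. *Scd1*, a desaturase, rose from 113 and 107 to 304 and 349 FPKM (log2 fold change 1.56 ± 0.14 SE, adjusted p = 0.000849), *Acss2*, which makes acetyl-CoA from acetate, from 13.3 and 16.7 to 44 and 58 FPKM (1.69), *Elovl7*, an elongase, from 14.1 and 15 to 42.9 and 40.1 FPKM (1.45) and *Slc25a1*, the citrate carrier, from 49.3 and 46.1 to 107 and 127 FPKM (1.27). These 4 held, and the number of rises was 5 to 11 with 1 library left out. *Fasn*, the synthase, rose less, from 165 and 154 to 218 and 265 FPKM (0.59), and lost the call in 3 of the 4 fits without 1 library (adjusted p up to 0.20). *Elovl2* was the member that fell, from 4.59 and 6.8 to 1.06 and 0.815 FPKM, a call lost in all 4 fits (up to 0.13). *Srebf1* was at 19.7 and 29.4 FPKM on Day 0 and 28.3 and 46 FPKM on Day 1 and was called with a replicate block alone. Of 23 genes of sphingolipids and galactolipids, 5 rose and none fell, and with 1 library left out 2 to 4 rose. *Fa2h*, which hydroxylates the fatty acids of myelin galactolipids, stood at 14.4 and 10.1 FPKM on Day 0 and 73.3 and 106 FPKM on Day 1 (log2 fold change 2.77 ± 0.23 SE, adjusted p = 0.000752), and *Ugt8a*, which makes galactosylceramide, rose from 128 and 111 to 292 and 402 FPKM (log2 fold change 1.51 ± 0.18 SE, adjusted p = 0.00159). Both held, while *Degs1*, *Gal3st1* and *Sgms2*, the other rises, lost the call in 3 or 4 of the 4 fits (up to 0.20, 0.082 and 0.23). *Lass2* (*Cers2*), the ceramide synthase of very long chains, was at 71.4 and 66.7 FPKM and 89.3 and 77.5 FPKM and was not called.

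Of 18 thyroid hormone genes tested, 3 rose and 1 fell, with a median of 0.15 that was -0.10 without Day 1 replicate 1. *Thra*, the receptor that OPCs express most, rose from 45.3 and 46.8 to 119.8 and 182 FPKM (log2 fold change 1.66 ± 0.22 SE, adjusted p = 0.00208), and *Thrb* did not pass the filter on low values. *Hr*, hairless, a known target gene and corepressor, rose from 28.1 and 28.5 to 72.1 and 66.9 FPKM (log2 fold change 1.27 ± 0.17 SE, adjusted p = 0.00208). *Klf9*, a further known target, was at 11.6 and 13.5 FPKM on Day 0 and 20.7 and 17.3 FPKM on Day 1 and was called with quantile normalization alone. *Slc7a5*, which carries large amino acids as well as thyroid hormone, fell from 58.6 and 42.5 to 9.05 and 10.5 FPKM (log2 fold change -2.25 ± 0.27 SE, adjusted p = 0.00159). *Thra*, *Hr* and *Slc7a5* held.

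The tubulins changed by isotype. Of 15 tested, 5 fell and 2 rose, and with 1 library left out 2 or 3 fell and 1 or 2 rose. *Tubb4a*, the main beta tubulin of OLs, stood at 313 and 292 FPKM on Day 0 and 992 and 1657 FPKM on Day 1 (log2 fold change 2.08 ± 0.27 SE, adjusted p = 0.00183). *Tuba1a* rose from 2054 and 2071 to 4168 and 5392 FPKM (1.20), whereas *Tuba1b* fell from 1184 and 1034 to 276 and 272 FPKM (log2 fold change -2.01 ± 0.27 SE, adjusted p = 0.00217) and *Tubb6* from 31.8 and 46.7 to 2.8 and 4.48 FPKM (log2 fold change -3.11 ± 0.32 SE, adjusted p = 0.00106). *Tuba1a*, *Tuba1b* and *Tuba1c* are nearly alike in sequence, so that how the reads were shared among them is uncertain. *Tuba1a* lost the call in 3 of the 4 fits without 1 library (adjusted p up to 0.13), *Tuba1c*, *Tubb4b* and *Tube1*, the other falls, lost it in 2 to 4 fits (up to 0.24, 0.18 and 0.13), and *Tubb4a*, *Tuba1b* and *Tubb6* held. Of 36 genes of microtubule-binding proteins, 15 rose and 2 fell, with a median of 0.59. *Mtap1b* (*Map1b*), a stabilizer of growing processes, rose from 10.8 and 15.1 to 89.4 and 189.7 FPKM (log2 fold change 3.25 ± 0.31 SE, adjusted p = 0.000933), *Dynll2*, a light chain of dynein, from 129.8 and 119.5 to 384 and 478 FPKM (1.77) and *Dpysl2* from 81.5 and 79.1 to 169 and 186 FPKM (1.14). *Stmn1*, which takes microtubules apart, fell from 405 and 392 to 138 and 75.2 FPKM (log2 fold change -1.95 ± 0.24 SE, adjusted p = 0.00168). These 4 held, while the number of rises was 4 to 11 with 1 library left out. Of 45 actin genes 5 fell and 1 rose, with a median of 0.03. With 1 library left out 1 to 3 fell, and the median was between -0.07 and 0.07. *Diap3*, a formin of dividing cells, fell from 8.16 and 9.27 to 0.464 and 0.667 FPKM (log2 fold change -2.63 ± 0.36 SE, adjusted p = 0.00256) and held, the tropomyosins *Tpm4* and *Tpm1* lost the call in 4 and 2 of the fits (up to 0.14 and 0.078), and *Actb* was at 2195 and 2296 FPKM on Day 0 and 2002 and 2869 FPKM on Day 1. Of 35 matrix and integrin genes, 6 fell and 1 rose, and with a replicate block 11 fell and 2 rose. Besides *Cspg4* and *Cspg5*, *Timp4*, an inhibitor of metalloproteinases, fell from 26.2 and 18.4 to 4.03 and 2.21 FPKM (log2 fold change -2.52 ± 0.32 SE, adjusted p = 0.00179) and held. *Itgav*, the alpha v integrin, fell from 77.4 and 82.4 to 34.3 and 41.8 FPKM (-1.06), a call lost without Day 0 replicate 1 or replicate 2 (up to 0.069), and the matrix list had 3 to 8 falls with 1 library left out.

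Most genes of growth were not called, though most had a negative log2 fold change. Of 81 cytosolic ribosomal protein genes, 80 had a negative log2 fold change, with a median of -0.44 beside -0.07 over all genes. Of the 81 genes 21 were called, all lower (25.9%, against 7.56% of all genes). Their summed share of all FPKM was 12.4% and 13.7% on Day 0 and 10.9% and 9.55% on Day 1. *Rps19* had the largest fall, from 375 and 449 to 220.3 and 239 FPKM (log2 fold change -0.84 ± 0.15 SE, adjusted p = 0.00967), and lost the call without Day 0 replicate 2 (0.097). The number called was 12 with median ratio scaling and 8 with quantile normalization, 0 without Day 0 replicate 2, 1 without Day 0 replicate 1 or Day 1 replicate 2 and 15 without Day 1 replicate 1. Many of these genes have processed pseudogenes that share reads. Of 66 genes of ribosome biogenesis 7 fell and none rose (10.6% lower, near the 7.56% of all genes), with a median of -0.38. *Npm1*, nucleophosmin, fell from 473 and 476 to 224 and 217 FPKM (log2 fold change -1.10 ± 0.13 SE, adjusted p = 0.00152) and held, though the count was 1 to 8 with 1 library left out. Of 32 genes of amino acid synthesis, transport and ATF4 targets, 6 fell and 1 rose, with a median of -0.52. *Phgdh*, which starts serine synthesis, fell from 106 and 71 to 38.8 and 19.6 FPKM (log2 fold change -1.61 ± 0.31 SE, adjusted p = 0.0124) and *Shmt1*, which passes a carbon from serine to folate, from 15.5 and 13 to 2.76 and 1.51 FPKM (log2 fold change -2.30 ± 0.42 SE, adjusted p = 0.00956). Both lost the call in 2 or 3 of the 4 fits without 1 library (adjusted p up to 0.12 and 0.086), and the number of falls in the list was 1 to 4. *Slc7a5*, given above with the thyroid hormone genes, is also a member of this list that fell, and it held. The member that rose, *Vldlr*, held as well. *Atf4* itself was at 74.8 and 69 FPKM and 58.6 and 89.8 FPKM.

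Energy metabolism changed in few genes. Of 77 subunits of oxidative phosphorylation 3 fell (3.9%, below the 7.56% of all genes) and none rose (median -0.19), and median ratio scaling left 0. Of 27 genes of glycolysis 2 fell (7.41%) and 1 rose (3.7%), near the shares of all genes, and with a replicate block 4 fell and 2 rose. The median of -0.08 turned to 0.10 with quantile normalization and was 0 to the second decimal with median ratio scaling. *Pdk2*, a kinase that holds pyruvate back from the citric acid cycle, rose from 8.35 and 7.92 to 24.1 and 20.4 FPKM (log2 fold change 1.34 ± 0.17 SE, adjusted p = 0.00165) and held. Of 45 lysosomal genes 1 rose (2.22%, below the 5.04% of all genes), or 2 with a replicate block, with a median of 0.26. It was *Tfeb*, the factor that governs lysosome genes, from 6.43 and 3.94 to 14.5 and 19.5 FPKM (log2 fold change 1.56 ± 0.24 SE, adjusted p = 0.00457), which held.

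Of 39 ion channels and neurotransmitter receptors, 9 fell and 4 rose, with a median of -0.31. Fewer rose in each fit without 1 library. *Grm5*, a metabotropic glutamate receptor, fell from 27.3 and 25.9 to 4.06 and 3.8 FPKM (log2 fold change -2.48 ± 0.27 SE, adjusted p = 0.00121), while *Grm7*, another, rose from 0.624 and 1.17 to 4.48 and 8.23 FPKM (log2 fold change 1.92 ± 0.29 SE, adjusted p = 0.00402). Both held. The potassium channel genes *Kcnd2* and *Kcnj16* fell from 10.8 and 20.6 to 1.08 and 2.75 FPKM and from 9.06 and 5.62 to 1.55 and 0.648 FPKM, calls lost in 1 and 2 of the 4 fits without 1 library (adjusted p up to 0.059 and 0.10), and the list then had 2 to 7 falls. *Kcnj10*, the inward rectifier of mature OLs, was at 76.2 and 63.9 FPKM and 123 and 104 FPKM and was called with rescaling to the same sum alone. Of 34 genes of survival and death, 3 rose and 1 fell, and with a replicate block 3 rose and 4 fell. With median ratio scaling, with quantile normalization or with 1 library left out none fell, and with 1 library left out 1 or 2 rose. *Bmf*, a death-promoting member of the BCL2 family, rose from 0.985 and 0.879 to 5.1 and 5.06 FPKM (log2 fold change 1.66 ± 0.26 SE, adjusted p = 0.00487) and held. The p53 targets *Cdkn1a*, *Eda2r*, *Ccng1* and *Bax* separated the replicates on all 4 days, with more in replicate 2, as in the summed astrocyte markers. *Ccng1*, cyclin G1, was at 20.2 and 117 FPKM on Day 0 and 26.4 and 54.3 FPKM on Day 1, and *Bax*, which opens the mitochondrial membrane, at 66.8 and 179 FPKM on Day 0 and 59.1 and 101 FPKM on Day 1, neither called. The part of this difference between the replicates in other results was not tested. Of 9 neuronal markers 1 rose and 1 fell, or 2 and 1 with a replicate block. The median was -0.83, with 4 log2 fold changes above 0 and 5 below. The marker that fell was *Nefl*, with log2 fold changes from -2.22 to -1.56 in the fits without 1 library. *Elavl3*, an RNA-binding protein, rose from 19.2 and 22.4 to 49 and 72.5 FPKM (log2 fold change 1.48 ± 0.23 SE, adjusted p = 0.00463), a call lost without Day 0 replicate 1 (0.056), and *Rbfox3* and *Slc17a7* did not pass the filter on low values.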

How the data were processed

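Total RNA of the cells was made into libraries with a TruSeq stranded mRNA kit on a NeoPrep and sequenced as 75-nt paired ends on a MiSeq. The authors processed the reads in OmicSoft ArrayStudio and deposited 1 table of FPKM for the 8 libraries; the build is mm10 (GRCm38) per the submitters' processing notes, and the aligner, gene model and use of strand are not given in the sources used here. Depth was estimated from the smallest steps of the FPKM values. Gene symbols were matched to GENCODE M21 for coordinates (21548 of 23427).

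Genes with at least 1 FPKM in at least 2 libraries were tested on log2(FPKM + 1), which understates the change of low genes, with limma 3.58.1 (R 4.3.3), a day factor over all 4 days, eBayes with a trend and Benjamini-Hochberg adjustment at 0.05. All columns were mapped by their titles to a day and replicate. Same-numbered replicates deviated together in each of the 6 day pairs (r = 0.16 to 0.29), so that the numbers may pair the libraries. The main fit and the fits without 1 library had no replicate block, which was fitted as an alternative. Without the block the SE was larger for genes whose replicates differed alike on each day, such as *Capn5* (0.70, against 0.18 with it). The replicates are taken as separate cultures as the study describes them; no label says so. Figures were drawn with matplotlib 3.10.9.

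Genes named are the 15 largest rises and falls with at least 10 FPKM on the higher day and, for each list, up to 6 called members with the largest change, the 2 with the highest level and members named in the background. Other members, such as those with the smallest change or not called, were chosen after their values were seen. A few list members are counted in the lists but not reported here by name. Members and lists were chosen with earlier results of these data known.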

Additional observations from a re-analysis of the deposited data

How the results depend on the processing

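The counts of 615 genes higher and 923 lower stayed within 1.5 times under another pseudocount, both other filters, the 3 scalings, the replicate block (744 higher and 1100 lower) and a prior with no trend. A fit of Day 0 and Day 1 alone gave 406 genes higher and 708 lower. Leaving out 1 library gave 216 to 434 genes higher and 359 to 724 lower; the day that keeps 1 library was then assumed to vary like the other days. Of 185 called genes examined singly, 185 kept the call with the replicate block, 160 with a pseudocount of 0.1, 160 with no filter, 172 to 176 with the 3 scalings, 147 with Day 0 and Day 1 alone, 149 with no trend and 102 to 148 with 1 library left out; none of these changed direction under any of them. Of the 172 of these genes that passed the filter of 10 FPKM, 172 kept the call. The depth limits what can be said of genes at a few FPKM, where 1 fragment moves the value, and with 2 libraries a day the spread of a single gene rests on the other days.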
